A study of Rattus norvegicus with 12 samples.

Results

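Chromatin-modifying enzymes were examined in adult rat ventricular myocytes (ARVMs) that overexpressed the nuclear receptor NR4A2. The genes were chosen by symbol alone, as those whose name begins with Hdac, Sirt, Kdm, Kmt, Setd, Smyd, Ezh, Dnmt, Kat, Brd or Prmt followed by a number, plus Crebbp. The symbol rule gave 68 of 17301 gene names, covered by 72 of 18752 transcripts. They comprised 10 histone deacetylases (HDAC), 6 sirtuins (SIRT), 13 lysine demethylases (KDM), 14 lysine methyltransferases, 4 DNA methyltransferases (DNMT), 6 lysine acetyltransferases (KAT), 7 bromodomain proteins (BRD) and 8 protein arginine methyltransferases (PRMT). The rule also covers TET enzymes and Ep300, but no gene name in the data matched them.

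ARVMs are muscle cells taken from the ventricles of grown rats, here of the Sprague Dawley strain, whose age is not given in the labels. Control cells (Ad-GFP) received an adenovirus coding for eGFP, and treated cells (Ad-h-NR4A2) received an adenovirus carrying human NR4A2 cDNA behind the CMV promoter, each at 50 MOI for 48 h. Both groups were kept in medium with 2,3-butanedione monoxime, an inhibitor of contraction. Messenger RNA was sequenced in 6 samples per group, and the sample numbers 24 to 29 occur in both groups. The meaning of these numbers is not given in the labels. Samples of the same number are shown as pairs, since their deviations from the group means correlated. Correlations between samples of different numbers were not computed. All tests compared the groups unpaired, except where a fit within pairs, the replicate block, is named. NR4A2 expression in this model is constitutive and comes from the vector, and the cells were not stimulated with isoproterenol.

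Histone tails carry acetyl and methyl groups that open or close chromatin for transcription. Acetyltransferases and methyltransferases write these marks, deacetylases, sirtuins and demethylases erase them, and bromodomain proteins read acetylated lysine. DNA methyltransferases put methyl groups on cytosines of CG dinucleotides. In heart muscle, class IIa deacetylases such as Hdac5 hold back the MEF2 transcription factors, and Smyd1 is a muscle-restricted methyltransferase that is needed for heart development and sarcomere assembly.

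Reads on the rat Nr4a2 transcript gave 0.884 ± 0.309 FPKM (SD, n = 6) with Ad-GFP and 524 ± 70.3 FPKM with Ad-h-NR4A2. The latter value may include reads of the human transgene. FPKM are fragments scaled to transcript length and to the mapped fragments of the sample, and the human transgene is seen here only through reads that aligned to the rat transcript. The deposited values imply 18800000 to 28000000 fragments per sample. All 6 cardiomyocyte markers had lower means with Ad-h-NR4A2, and their summed level ranged from 17688 to 22842 FPKM with Ad-GFP and from 15658 to 19261 FPKM with Ad-h-NR4A2. In limma, 4 of the 6 had an adjusted p below 0.05, all lower (against 21.7% of all genes). Ryr2 fell from 85.7 ± 9.90 to 53.4 ± 7.56 FPKM and Myh7 from 273 ± 75.4 to 154 ± 62.0 FPKM. Myh6 fell from 1152 ± 104 to 781 ± 90.3 FPKM and Tnnt2 from 7189 ± 485 to 5992 ± 385 FPKM, whereas Tnni3 and Actc1 did not pass. Sums ranged from 9.04 to 30.1 against 5.80 to 26.4 FPKM for 6 fibroblast markers, from 5.47 to 17.1 against 4.39 to 16.2 FPKM for 5 endothelial markers and from 7.07 to 20.3 against 6.86 to 16.5 FPKM for 4 smooth muscle markers. All 5 tested fibroblast markers had log2 fold changes below 0, and Col3a1 fell from 3.64 ± 1.42 to 1.78 ± 0.560 FPKM (adjusted p = 0.0239 from limma). Among smooth muscle markers, Myh11 fell from 3.05 ± 0.462 to 1.97 ± 0.374 FPKM (adjusted p = 0.00284 from limma). The sum of 5 cycling markers stayed between 0.481 and 1.14 FPKM in every sample. The sum of 4 macrophage markers was 5.95 to 17.2 FPKM with Ad-GFP and 37.0 to 44.2 FPKM with Ad-h-NR4A2. This difference lay in Csf1r (10.1 ± 3.87 and 40.2 ± 2.35 FPKM), whereas Cd68 was 0.463 ± 0.194 and 0.482 ± 0.210 FPKM and Ptprc and Cd163 were listed at 0 in some samples. The part of cell composition in the results below was not tested, and in bulk RNA fewer cells of a type and less RNA per cell cannot be told apart.

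Of the 68 genes, 64 were listed above 0 in all 12 samples and were tested within the 10950 genes that met this condition. A gene was called differentially expressed when its adjusted p in limma (Benjamini-Hochberg adjustment over all 10950 genes) was below 0.05 and the group means of FPKM differed by at least 1.5-fold. Only 5 of the 64 were called, or 7.81%, against 15.2% of all genes tested. Smyd1, Setd6, Setd7 and Hdac10 were upregulated (4 of 64, against 7.94% of all genes), and Hdac5 was downregulated (1 of 64, against 7.24%). On adjusted p alone, 28 of the 64 passed, or 43.8%, against 40.9% of all genes. Of these, 9 were higher (14.1%, against 19.3%) and 19 were lower (29.7%, against 21.7%) with Ad-h-NR4A2. The chromatin enzymes thus passed the test about as often as other genes, but mostly with small changes, and 59 of the 64 were not called.

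The 5 called genes are shown first with the sequence upstream of their start sites, since they differ widely in CG dinucleotides, the substrate of the DNA methyltransferases. RefSeq promoters of the rat assembly GRCr8 were at hand for 52 of the 68 genes, including 4 of the called genes, and Setd7 was not among them. Each line gives the 250 bases before the start site, 5′ to 3′ in the direction of transcription, with CG dinucleotides in capitals. All 4 genes lie on the minus strand, Smyd1 at chr4:104811273-104811522, Setd6 at chr19:9356516-9356765, Hdac10 at chr7:122083847-122084096 and Hdac5 at chr10:87688055-87688304.
Smyd1: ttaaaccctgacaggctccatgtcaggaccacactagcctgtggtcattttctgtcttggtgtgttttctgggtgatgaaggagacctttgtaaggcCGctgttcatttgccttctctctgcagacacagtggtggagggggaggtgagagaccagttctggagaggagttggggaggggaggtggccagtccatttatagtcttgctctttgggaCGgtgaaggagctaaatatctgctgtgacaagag
Setd6: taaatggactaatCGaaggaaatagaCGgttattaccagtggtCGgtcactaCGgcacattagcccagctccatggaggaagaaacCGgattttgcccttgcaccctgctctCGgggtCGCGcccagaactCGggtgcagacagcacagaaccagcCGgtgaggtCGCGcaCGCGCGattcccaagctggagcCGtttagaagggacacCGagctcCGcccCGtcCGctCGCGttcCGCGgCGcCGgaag
Hdac10: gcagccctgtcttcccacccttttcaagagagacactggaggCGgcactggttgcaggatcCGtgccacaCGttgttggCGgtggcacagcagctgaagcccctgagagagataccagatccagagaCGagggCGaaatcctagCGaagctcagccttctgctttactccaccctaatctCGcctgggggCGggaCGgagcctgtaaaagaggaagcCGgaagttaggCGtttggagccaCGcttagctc
Hdac5: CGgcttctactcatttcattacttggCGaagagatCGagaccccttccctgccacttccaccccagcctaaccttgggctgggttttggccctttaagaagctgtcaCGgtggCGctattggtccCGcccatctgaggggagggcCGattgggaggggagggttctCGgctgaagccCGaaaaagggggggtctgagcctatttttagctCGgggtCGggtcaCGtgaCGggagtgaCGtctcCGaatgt

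Smyd1 has 2 CG dinucleotides in this window, Hdac10 has 13, Hdac5 has 15 and Setd6 has 26. The median was 16.5 over the 52 promoters (lower and upper quartile 13.75 and 23) and 5 over all 33469 promoters of the table (quartiles 2 and 15). Only Brd3, Hdac8 and Hdac9 were as low as Smyd1 among the 52, at 2 each. Fewer CG dinucleotides than in Smyd1 were found in 18.1% of all promoters, and fewer than in Setd6 in 91.4%. The NR4A monomer motif AAAGGTCA (NBRE) was searched on both strands of the same windows extended 50 bases past the start. It occurred in 477 of 33469 promoters (1.43%) and in none of the 52. The half-site AGGTCA, which is contained in the NBRE, occurred in 16.2% of all promoters and in 4 of the 52, namely those of Brd3, Dnmt3a, Hdac8 and Sirt5. These matches describe the letters of the windows and say nothing of binding.

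Smyd1, on Rn5 at chr4:163851683-163904153, showed the largest change of the 64 genes. In order of the sample numbers 24 to 29, Smyd1 mRNA was 104, 99.9, 99.0, 119, 85.1 and 107 FPKM with Ad-GFP and 289, 287, 316, 347, 296 and 332 FPKM with Ad-h-NR4A2. The lowest treated sample thus had more than double the level of the highest control. The means were 102 ± 11.1 and 311 ± 24.6 FPKM, a ratio of 3.04. On the log2 scale of FPKM + 0.1, the fold change was 1.61 with an SE of 0.07 and an adjusted p of 2.87e-09 from limma, and ranged from 1.47 to 1.80 in the 6 pairs. Behind these values stood an estimated 3717 fragments in the shallowest control and 12385 in the shallowest treated sample, so that counting error was small. The summed cardiomyocyte markers were 20264 ± 1805 FPKM with Ad-GFP and 17089 ± 1492 FPKM with Ad-h-NR4A2, with overlapping ranges. The part of cell composition in the Smyd1 change was not tested. The summed FPKM of the 68 genes was 1337 ± 49.3 FPKM with Ad-GFP and 1522 ± 31.3 FPKM with Ad-h-NR4A2, whereas without Smyd1 it was 1234 ± 56.3 and 1211 ± 38.5. The higher total of the chromatin enzymes thus came from Smyd1.

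Setd6 and Setd7 are lysine methyltransferases that act on histones and on other proteins, Setd6 on the NF-κB subunit RelA and Setd7 on lysine 4 of histone H3. Setd6 (chr19:9747567-9750562) was 9.58, 8.94, 9.38, 8.80, 7.56 and 9.38 FPKM with Ad-GFP and 15.4, 16.2, 17.0, 14.7, 14.7 and 14.7 FPKM with Ad-h-NR4A2, a ratio of 1.73. Setd7 (chr2:160051126-160093343) was 14.9, 14.7, 13.5, 12.9, 12.9 and 11.7 FPKM with Ad-GFP and 21.3, 23.7, 21.1, 24.5, 24.8 and 22.0 FPKM with Ad-h-NR4A2, a ratio of 1.70. In both genes every treated sample lay above every control. The log2 fold changes were 0.78 (SE 0.07) for Setd6 and 0.77 (SE 0.07) for Setd7, with adjusted p from limma of 8.66e-07 and 1.28e-06. Differences within pairs spanned 0.65 to 0.95 for Setd6 and 0.51 to 0.94 for Setd7.

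Hdac10 and Hdac5 are deacetylases of different classes. Hdac10 belongs to class IIb and deacetylates polyamines, whereas Hdac5 belongs to class IIa, which has little enzyme activity of its own and binds MEF2 factors. Hdac10 (chr7:129788124-129793226) was low in both groups, at 2.70, 2.50, 2.58, 2.53, 2.83 and 3.03 FPKM with Ad-GFP and 3.23, 3.84, 4.08, 4.51, 4.28 and 4.70 FPKM with Ad-h-NR4A2. The groups did not overlap, though treated sample 24 came close to control sample 29. On the log2 scale Hdac10 rose by 0.58 (limma, SE 0.10, adjusted p = 0.000299), and the ratio of 1.52 was just past the limit. Without Ad-h-NR4A2 sample 27 or 29 the ratio was 1.49 or 1.48, and Hdac10 was no longer called. Hdac5 (chr10:89927486-89956387) was 37.4, 34.0, 40.5, 41.4, 35.2 and 37.7 FPKM with Ad-GFP and 28.5, 20.8, 27, 22.8, 25.4 and 22.7 FPKM with Ad-h-NR4A2. Every treated sample lay below every control, and the ratio was 0.651 (log2 fold change -0.62 with SE 0.08, limma adjusted p = 2.80e-05). Without Ad-h-NR4A2 sample 25 the ratio was 0.671, and Hdac5 was no longer called. For each of the 5 called genes the two-sided exact permutation test gave p = 0.00216, the smallest value possible with 6 samples against 6. This value follows whenever the groups do not overlap, as in 21.5% of all genes, so it adds nothing to the calls.

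**Figure D1:**
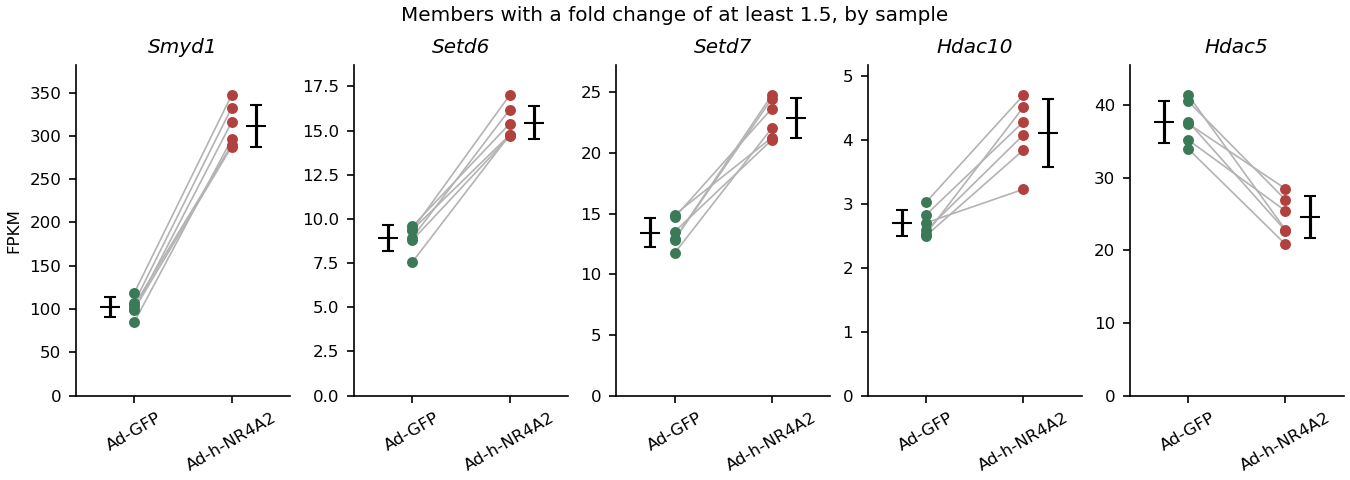
FPKM (vertical axes, linear, each starting at 0) of the 5 called genes in Ad-GFP (green) and Ad-h-NR4A2 (red) samples. Points are samples, gray lines join samples of the same number, and black bars show mean ± SD (n = 6). The groups do not overlap in any panel, and Smyd1 goes from a mean of 102 to 311 FPKM whereas Hdac5 falls from 37.7 to 24.6 FPKM.

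The remaining deacetylases changed little. Hdac2, a class I enzyme, had the highest mRNA level of the HDACs, at 67.3 ± 3.00 FPKM with Ad-GFP and 71.8 ± 2.66 FPKM with Ad-h-NR4A2 (log2 fold change 0.09, adjusted p = 0.0736 from limma). It was higher with Ad-h-NR4A2 in all 6 pairs, and with the replicate block, a fit that compares samples within their pair, its adjusted p from limma was 0.0131. Hdac3, the enzyme of the NCoR/SMRT corepressor, fell from 29.6 ± 0.846 to 25.3 ± 1.08 FPKM without overlap of the groups (log2 fold change -0.23, SE 0.04, adjusted p = 0.000539 from limma). Hdac1, the close paralog of Hdac2, was 12.5 ± 0.669 and 12.9 ± 0.567 FPKM. Hdac4, of the same class as Hdac5, was 1.97 ± 0.269 and 1.58 ± 0.393 FPKM, and its difference of -0.33 on the log2 scale (SE 0.16) did not pass in limma (adjusted p = 0.112), but did with the replicate block (adjusted p = 0.0164) and without Ad-h-NR4A2 sample 28 (adjusted p = 0.0479). Hdac8, Hdac9 and Hdac11 had log2 fold changes between -0.15 and 0.04. Hdac1l was at most 0.153 FPKM, with 1 to 4 estimated fragments in treated samples, and may share reads with Hdac1. Of the 10 HDACs, 5 had log2 fold changes above 0 and 5 below, with a median of -0.02, against -0.02 for all genes. On adjusted p 3 of the 10 passed, against 40.9% of all genes, and with the replicate block 5 passed, against 59.4% of all genes.

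Sirtuins remove acyl groups at the expense of NAD. Sirt2, a mainly cytoplasmic deacetylase, and Sirt5, a mitochondrial enzyme that removes succinyl and malonyl groups, had the highest levels and moved in opposite directions. Sirt5 (chr17:25936391-25963433) was 58.6 to 70.7 FPKM with Ad-GFP and 74.0 to 88.1 FPKM with Ad-h-NR4A2, with means of 63.0 ± 4.89 and 82.3 ± 5.21 FPKM. In limma the increase was 0.39 on the log2 scale (SE 0.06, adjusted p = 0.000120). Sirt2 fell from 89.1 ± 2.36 to 78.0 ± 2.79 FPKM, again without overlap (log2 fold change -0.19, SE 0.03, adjusted p = 0.000597 from limma). Mitochondrial Sirt3 was 36.9 ± 4.68 and 36.0 ± 2.18 FPKM, and Sirt4, Sirt6 and Sirt7 had log2 fold changes between -0.12 and 0.05 that did not pass. Neither change reached 1.5-fold, and the summed level of the 6 sirtuins was 216 ± 7.89 and 223 ± 8.16 FPKM.

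Lysine acetyltransferases write the marks that these enzymes remove. No KAT gene was called, and 2 of 6 passed on adjusted p, both lower (against 21.7% of all genes). Kat6a fell from 8.35 ± 0.536 to 7.06 ± 0.796 FPKM (log2 fold change -0.24, adjusted p = 0.0276 from limma) and Kat5, the catalytic subunit of the Tip60 complex, fell from 16.9 ± 1.15 to 14.8 ± 1.28 FPKM (-0.19, adjusted p = 0.0333). Kat6a no longer passed when any of 5 single samples was left out, and Kat5 when any of 7 was. Crebbp, a coactivator of many transcription factors, was 3.85 ± 0.482 and 3.11 ± 0.676 FPKM with a log2 fold change of -0.31. All 6 KAT genes moved one way in all 6 pairs, 5 down and Kat2a up, against 53.2% of all genes with the same direction in all pairs. With the replicate block all 6 passed on adjusted p, Crebbp with 0.00422 and Kat2a with 0.00869 (limma). In that fit 40 of the 64 genes passed (13 higher and 27 lower), against 59.4% of all genes.

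Bromodomain proteins read acetylated lysine. Brd3, of the BET family, fell from 17.6 ± 1.61 to 13.0 ± 1.24 FPKM, and Brd1 fell from 10.2 ± 0.682 to 7.97 ± 0.927 FPKM. In both the groups did not overlap, with log2 fold changes of -0.43 (SE 0.08, adjusted p = 0.000516) and -0.36 (SE 0.08, adjusted p = 0.00255) from limma. Brd8 was 11.6 ± 1.08 and 9.90 ± 1.02 FPKM (-0.23, adjusted p = 0.0362), and it no longer passed when any of 7 single samples was left out. Brd7 had the highest level of the class, at 36.2 ± 3.45 and 36.7 ± 2.23 FPKM. Brd2 was at most 0.479 FPKM, but its transcript is placed at 2 loci of chromosome 20 in Rn5, so that its reads may have been divided and its level is uncertain.

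**Figure D2:**
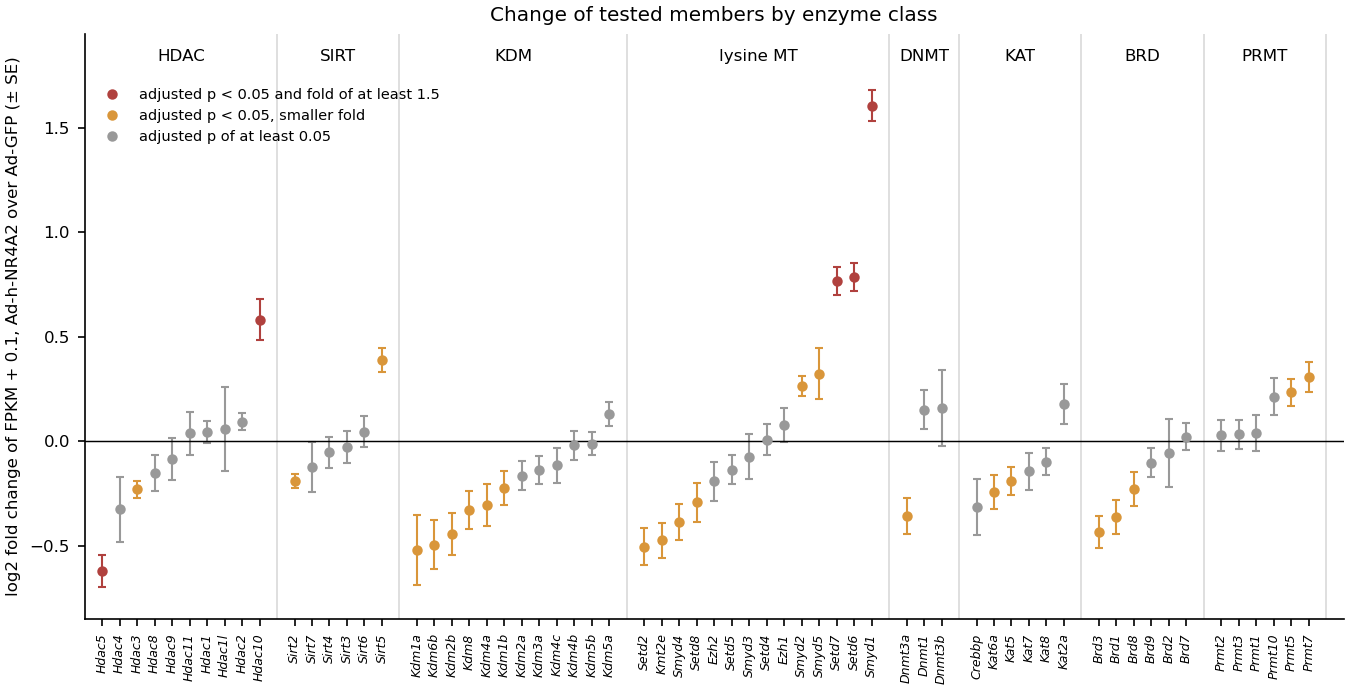
Log2 fold change of FPKM + 0.1 (vertical axis, Ad-h-NR4A2 over Ad-GFP, bars ± SE from limma) of 63 tested genes (horizontal axis), ordered within each enzyme class. Red points were called, orange points passed on adjusted p with a smaller fold change, and gray points did not pass. Smyd1 stands alone at 1.61, 11 of 12 KDM genes and 5 of 6 KAT genes lie below 0 and all 6 PRMT genes lie above 0.

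Lysine methyltransferases moved in both directions. Of 14, 9 passed on adjusted p (against 40.9% of all genes), 5 higher and 4 lower (against 19.3% and 21.7%), and 7 had log2 fold changes above 0 and 7 below. Besides Smyd1, Setd6 and Setd7, Smyd2 rose from 82.0 ± 5.19 to 98.5 ± 4.70 FPKM without overlap of the groups (0.26, SE 0.05, adjusted p = 0.000588 from limma). Smyd5 was 11.9 ± 2.25 and 14.7 ± 1.63 FPKM with an adjusted p of 0.0499, and no longer passed when any of 8 single samples was left out. Setd2, Kmt2e and Smyd4 were lower without overlap of the groups, but none of them reached 1.5-fold. Setd2, which trimethylates lysine 36 of histone H3 behind elongating RNA polymerase II, was 15.2 to 19.6 FPKM with Ad-GFP and 10.3 to 14.7 FPKM with Ad-h-NR4A2 (-0.51, SE 0.09, adjusted p = 0.000472). Kmt2e, an MLL family member, fell from 7.19 ± 0.560 to 5.16 ± 0.584 FPKM (-0.47, SE 0.08), and Smyd4 fell from 7.53 ± 0.546 to 5.75 ± 0.704 FPKM (-0.39, SE 0.08). Setd8, which monomethylates lysine 20 of histone H4, was 84.5 ± 11.0 and 68.9 ± 8.32 FPKM (-0.29, adjusted p = 0.0217) with some overlap, and lost its adjusted p below 0.05 without Ad-h-NR4A2 sample 27 (0.0508). Within the SMYD family, Smyd1, Smyd2 and Smyd5 were thus higher and Smyd4 lower, whereas Smyd3 (4.31 ± 0.614 and 4.07 ± 0.423 FPKM) did not pass.

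The 2 catalytic subunits of the Polycomb complex PRC2, which trimethylates lysine 27 of histone H3, did not pass. Ezh1, the form of cells that no longer divide, was 23.0 ± 2.55 and 24.3 ± 2.53 FPKM. Ezh2, the form of dividing cells, was 3.40 ± 0.266 and 2.98 ± 0.371 FPKM (-0.19, SE 0.09, adjusted p = 0.120), and was lower with Ad-h-NR4A2 in all 6 pairs.

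Lysine demethylases leaned downward. Of 12 tested, 11 had log2 fold changes below 0 (91.7%, against 53.4% of all genes), with a median of -0.19, and 6 passed on adjusted p, all lower (against 21.7% of all genes). The lean was shared by 5 of 6 KAT genes (83.3%) and most BRD genes. In the lists described below, 80% of HDAC corepressor subunits and 78.6% of methyltransferases were below 0, but 14.3% of MLL complex subunits. The share was 66.7% in sirtuins, 50% in HDACs and in lysine methyltransferases, 33.3% in DNMTs and 0% in the PRMT genes of the symbol rule. None of the KDM genes reached 1.5-fold. Kdm1a (LSD1), the flavin-dependent eraser of lysine 4 methylation, came closest and had the widest range of FPKM in the class. Kdm1a (chr5:158674383-158730358) was 63.7, 51.3, 52.7, 31.1, 68.0 and 46.2 FPKM with Ad-GFP and 45.3, 32.7, 32.3, 29.4, 41.7 and 32.7 FPKM with Ad-h-NR4A2. Control sample 27 lay within the range of the treated samples, and its pair differed by only -0.08 on the log2 scale, against -0.49 to -0.70 in the other 5 pairs. The means of 52.2 ± 13.1 and 35.7 ± 6.29 FPKM gave a ratio of 0.684, or -0.52 on the log2 scale (limma, SE 0.17, adjusted p = 0.0242). Without Ad-GFP sample 27 the ratio was 0.633 and Kdm1a was called. It was also called without Ad-h-NR4A2 sample 24 (0.647) or 28 (0.661), whereas without Ad-GFP sample 24 or 28 or Ad-h-NR4A2 sample 27 its adjusted p was between 0.0532 and 0.0552.

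Among the demethylases with a Jumonji domain, Kdm6b, an eraser of lysine 27 methylation, was 5.22 to 6.93 FPKM with Ad-GFP and 3.38 to 5.62 FPKM with Ad-h-NR4A2 (-0.50, SE 0.12, adjusted p = 0.00431 from limma). Sample 24 was the highest of both groups, and without Ad-h-NR4A2 sample 24 the ratio went from 0.711 to 0.656, which was past the limit. Kdm2b, which recruits a Polycomb complex to CG-rich DNA, fell from 2.81 ± 0.233 to 2.05 ± 0.264 FPKM and was the only KDM gene without overlap (-0.44, SE 0.10). The Kdm2b locus overlaps those of Anapc5, Camkk2 and Rnf34, and whether reads were counted by strand is not stated. Kdm8 (11.1 ± 1.12 and 8.83 ± 1.02 FPKM), Kdm4a (22.3 ± 2.60 and 18.1 ± 2.70 FPKM) and the Kdm1a paralog Kdm1b (4.98 ± 0.453 and 4.25 ± 0.385 FPKM) also passed. Kdm4a no longer passed when any of 5 single samples was left out, and Kdm1b when any of 8 was. Kdm5a was the exception to the direction, at 14.0 ± 0.884 and 15.3 ± 1.04 FPKM (0.13, adjusted p = 0.0957), and both of its transcripts had a log2 fold change of 0.13. With the replicate block 9 of the 12 passed, Kdm5a higher and 8 lower, against 59.4% of all genes in either direction.

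Of the 6 PRMT genes tested, all had log2 fold changes above 0, whereas 53.4% of all genes were below 0. Their median was 0.13, against -0.02 for all genes, but only 2 passed on adjusted p, against 40.9% of all genes. The direction holds for the genes named by the symbol rule only. Carm1 (PRMT4), an arginine methyltransferase outside the rule, fell from 33.7 ± 2.43 to 28.1 ± 2.45 FPKM (-0.26, adjusted p = 0.00611 from limma). It was lower with Ad-h-NR4A2 in all 6 pairs. Prmt7, a monomethylating enzyme, rose from 19.1 ± 1.37 to 23.7 ± 2.49 FPKM without overlap (0.31, SE 0.07, adjusted p = 0.00437 from limma). Prmt5, the main source of symmetric dimethylarginine, rose from 42.0 ± 4.15 to 49.3 ± 2.98 FPKM (0.23, SE 0.07, adjusted p = 0.0109). Prmt1, the main source of asymmetric dimethylarginine, was the most abundant, at 83.1 ± 10.6 and 85.1 ± 7.75 FPKM, and Prmt2 and Prmt3 also had log2 fold changes of 0.04 or less. Prmt10 was 10.4 ± 0.856 and 12.1 ± 1.46 FPKM and did not pass in limma (adjusted p = 0.0640). It passed with the replicate block (adjusted p = 0.00188), without Ad-GFP sample 27 (0.0476) and without Ad-h-NR4A2 sample 28 (0.00895). The tested PRMT genes were fewer than the 8 found, since Prmt6 and Prmt8 were listed at 0 in some samples.

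DNA methyltransferases were scarce. Dnmt3a, a de novo enzyme, fell from 5.50 ± 0.489 to 4.27 ± 0.462 FPKM (-0.36, SE 0.09, adjusted p = 0.00485 from limma), and nearly all of its level came from 1 of its 2 transcripts. Dnmt1, which copies methylation after replication, was 3.65 ± 0.318 and 4.07 ± 0.493 FPKM, and Dnmt3b was 0.188 ± 0.0259 and 0.232 ± 0.0931 FPKM and neither passed (adjusted p = 0.220 and 0.526, limma). The 4 untested genes were near 0 throughout. Dnmt3l ranged from 0 to 0.0699 FPKM, Kdm4d from 0 to 0.0179, Prmt6 from 0 to 0.0145 and Prmt8 from 0 to 0.0247. The Prmt6 transcript is placed at 2 loci in Rn5 and is uncertain in the same way as Brd2.

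**Figure D3:**
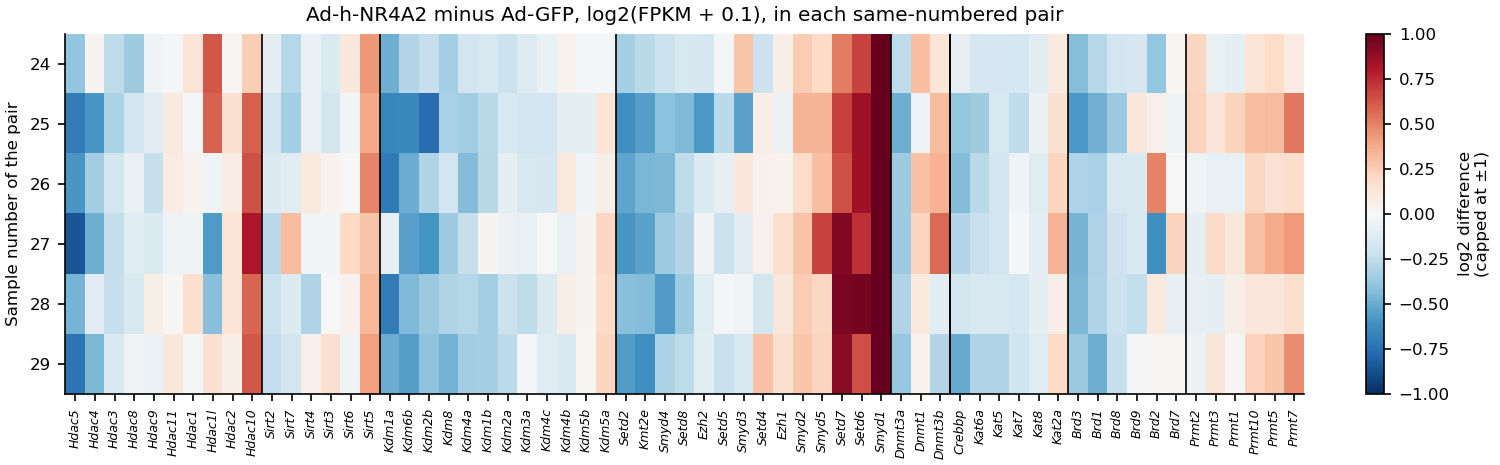
Difference Ad-h-NR4A2 minus Ad-GFP in log2(FPKM + 0.1) (color, red higher and blue lower, capped at ±1) for 63 genes (columns, by class in the order HDAC, SIRT, KDM, lysine methyltransferases, DNMT, KAT, BRD and PRMT) in each same-numbered pair (rows). Columns of one color show genes with the same direction in all 6 pairs, such as Smyd1 at the right end of the fourth block. Pair 27 is nearly white for Kdm1a, at -0.08.

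Over the 64 genes, 40 had the same direction in all 6 pairs, 12 higher and 28 lower, against the background of 53.2% given above. The groups did not overlap in 16, against 21.5% of all genes. Of these 7 were higher (Smyd1, Setd6, Setd7, Hdac10, Sirt5, Smyd2 and Prmt7, against 10.9%) and 9 were lower (Hdac5, Hdac3, Sirt2, Setd2, Kmt2e, Smyd4, Kdm2b, Brd3 and Brd1, against 10.6%). The median log2 fold change of the 64 was -0.09, against -0.02 for all genes, and 60.9% were below 0, against 53.4%.

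Genes that work with these enzymes but fall outside the symbol rule were taken from 10 lists. The lists held 128 names, including alternative names of the same genes, of which 99 were found in the data and 97 were tested. Of the 97, 6 were called (against 15.2% of all genes). On adjusted p 42 passed, 11 higher and 31 lower (against 19.3% and 21.7% of all genes, or 40.9% in either direction). Their median log2 fold change was -0.13, against -0.02. With the replicate block 64 of the 97 passed, 14 higher and 50 lower, against 59.4% of all genes in either direction. Of the 6 called genes, Uhrf1, Nmnat2, Mat1a and Mef2b had means below 1 FPKM over the 12 samples, and with a mean of at least 1 FPKM required only Rcor2 and Cbx6 were called.

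Rcor2, a CoREST subunit that binds Kdm1a, changed most among partner proteins of level above 1 FPKM, from 27.7 ± 1.5 to 7.35 ± 1.20 FPKM (-1.91, SE 0.09). Its paralogs were less affected, with Rcor3 at 4.65 ± 0.497 and 3.75 ± 0.304 FPKM (-0.30, adjusted p = 0.0152 from limma) and Rcor1 at 5.59 ± 0.428 and 4.90 ± 0.542 FPKM (-0.19, adjusted p = 0.0962). Of 15 HDAC corepressor subunits, 4 were lower (against 21.7% of all genes) and Tbl1xr1 was higher on adjusted p (against 19.3%). Cbx6, a Polycomb reader, fell from 19.2 ± 1.6 to 12.7 ± 1.72 FPKM (-0.60, SE 0.09). It was the only called gene of 13 Polycomb partners, against 15.2% of all genes. None of the 7 MLL complex subunits passed, against 40.9% of all genes, and 6 of them had log2 fold changes between 0.00 and 0.05. The other, Hcfc1, was 6.07 ± 0.883 and 4.86 ± 0.861 FPKM (-0.32, adjusted p = 0.0584 from limma) and was lower with Ad-h-NR4A2 in all 6 pairs. Among methyltransferases outside the rule 6 of 14 passed, all lower (against 21.7% of all genes). Dot1l (12.7 ± 1.81 and 8.81 ± 1.28 FPKM, -0.53) and Whsc1 (-0.43) led them. Among 5 acetyltransferases only Ncoa1 passed (-0.30), against 40.9% of all genes. Of the 6 genes listed as demethylases, whose activity was not examined here, 5 passed, against 40.9% of all genes. Phf2 (-0.47), Phf8 and Jmjd1c were lower, whereas Hspbap1 (0.48) and Mina (0.32) were higher.

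Of 12 genes of cofactor supply, 6 passed, against 40.9% of all genes. Of these, 4 were higher and 2 lower (against 19.3% and 21.7% of all genes). NAD feeds the sirtuins, and Nampt, the rate-limiting enzyme of its salvage, rose from 197 ± 18.8 to 270 ± 41.5 FPKM (0.45, SE 0.10, adjusted p = 0.00224 from limma), whereas Nmnat2 fell from 1.6 ± 0.134 to 0.326 ± 0.0867 FPKM (-2.02, SE 0.14). S-adenosylmethionine feeds the methyltransferases. Ahcy, which clears the product of methylation, rose from 45.0 ± 2.44 to 61.4 ± 2.88 FPKM (0.45, SE 0.05), and Mat2b, a regulatory subunit of its synthesis, from 66.4 ± 3.29 to 81.6 ± 3.79 FPKM (0.30), while the catalytic Mat2a fell from 116 ± 9.90 to 102 ± 6.69 FPKM (-0.19). Mat1a was called higher at 0.106 ± 0.0258 and 0.204 ± 0.0923 FPKM, with overlap of the groups.

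Of 11 tested DNA methylation readers and partners, 7 passed, against 40.9% of all genes. Uhrf1, which brings Dnmt1 to replicated DNA, was called lower at 0.523 ± 0.138 and 0.278 ± 0.0657 FPKM. Gadd45g (79.0 ± 12.1 and 112 ± 13.2 FPKM, 0.51) and Gadd45b (0.33) were higher and Gadd45a (334 ± 37.5 and 268 ± 37.3 FPKM, -0.32) was lower. Of 11 further bromodomain proteins 5 were lower and 1 was higher on adjusted p, against 21.7% and 19.3% of all genes. The higher gene was Smarca2, an ATPase of the SWI/SNF remodeler (12.6 ± 0.603 and 16.1 ± 1.4 FPKM, 0.34). Mef2a (49.8 ± 2.69 and 38.8 ± 2.94 FPKM, -0.36) and Mef2d (41.7 ± 3.47 and 31.8 ± 4.65 FPKM, -0.40), targets of Hdac5, were lower, and Mef2b was called higher at 0.140 ± 0.0508 and 0.278 ± 0.105 FPKM, with overlap of the groups.

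**Figure D4:**
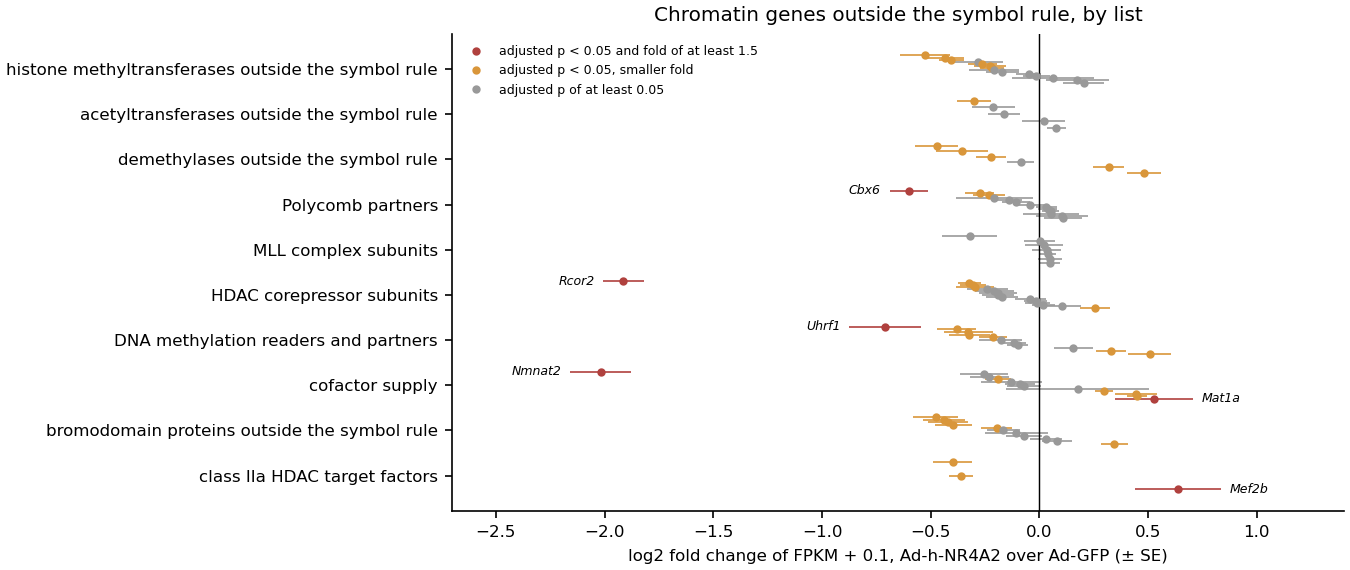
Log2 fold change of FPKM + 0.1 (horizontal axis, Ad-h-NR4A2 over Ad-GFP, bars ± SE from limma) of 97 chromatin genes outside the symbol rule, grouped in 10 lists (vertical axis). Red points with names were called, orange points passed on adjusted p only, and gray points did not pass. Rcor2 (-1.91) and Nmnat2 (-2.02) lie far to the left of all others.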

How the data were processed

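Per the labels and the paper, the authors sequenced stranded mRNA libraries of 12 ARVM samples in paired ends, used STAR for alignment to Rn5, and obtained transcript levels with Cufflinks on RefSeq models. The deposited FPKM, the values used here, were made without replicate pooling. Where a gene name had several transcripts, the most abundant on average stood for it, and a gene was tested if none of its 12 values was 0. The model was limma 3.58.1 on log2(FPKM + 0.1) (trend, unpaired, two-sided, Benjamini-Hochberg) in R 4.3.3, so that fold changes of low genes are understated. The numbers 24 to 29 were taken to pair the samples, which the labels do not state: the study describes 6 independent experiments with different rats, and deviations from the group means correlated at 0.347 to 0.623 in the 6 pairs. The comparison was tested on simulated data. Fragments were estimated from the steps between low FPKM values, of which 99.2% to 99.8% per sample came out whole within 0.05, and cover counting error only. Alternatives were other pseudocounts, filters, scalings, transcript choices and fold limits, no trend, the replicate block and each sample left out. Named genes are all called genes, those of highest level per class, those passing on adjusted p, those listed at 0, and called genes of the lists. Others were named after their values were seen. Genes and lists were chosen with earlier results of these data known. Values were tabulated and drawn with Python 3.11.15, pandas 2.3.3, NumPy 2.4.6 and Matplotlib 3.10.9. Of the tested genes, 1 is not reported here by itself and is left out of the plots.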

Additional observations from a re-analysis of the deposited data

Results flagged for a closer look

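Single samples lay far from the other 5 of their group in 6 of 126 gene and group combinations, and chance gives about 6.3. Kdm6b was high in sample 24 of both groups, at 6.93 FPKM with Ad-GFP and 5.62 FPKM with Ad-h-NR4A2. Kdm1b was high in Ad-GFP sample 28 (5.87 FPKM). With Ad-h-NR4A2, Hdac1 was high in sample 28 (14.0 FPKM), Kdm5b low in sample 25 (5.53 FPKM) and Setd4 high in sample 29 (6.02 FPKM).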

How the results depend on the processing

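The same 5 genes were called with pseudocounts of 1 and 0.01, without a filter, with a mean FPKM of at least 1, on the TPM scale, after quantile normalization, without trend, with transcripts summed or genes of several transcripts left out, and with the replicate block (5 called, 4 higher and 1 lower). With a fold limit of 2 only Smyd1 was called (1 higher, 0 lower), and with none 28 were (9 higher, 19 lower). Leaving out 1 sample gave 4 to 7 called, 3 to 4 higher and 0 to 3 lower, through Hdac5, Hdac10, Kdm1a and Kdm6b as described. Of the other chromatin genes, 2 were called with a mean FPKM of at least 1, 2 with a fold limit of 2, 42 with no fold limit, and 5 to 7 with 1 sample left out. The Nr4a2 log2 fold change stayed between 9.03 and 9.23 with 1 sample left out. Of the 28 genes passing on adjusted p, 19 passed in all 22 refits, and Dnmt3a in the 21 that tested it. Brd8, Kat5, Kat6a, Kdm1a, Kdm1b, Kdm4a, Setd8 and Smyd5 did not, though none of the 28 changed sign, and the causes were not tested. The replicate block changed no call with the fold limit, and on adjusted p it added 12 genes of the 64. Depth limits most the genes near 0, such as Hdac1l and Dnmt3b. Counting error also enters at somewhat higher levels, as for Hdac10, with an estimated 93 to 168 fragments in Ad-GFP and 138 to 219 in Ad-h-NR4A2 samples.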
